A study of Rattus norvegicus with 4 samples.

Results

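The pigment cell and melanin genes examined here were *Dct*, *Tyr*, *Tyrp1*, *Pmel*, *Mlana*, *Mitf*, *Slc45a2* and *Kit*, and they were followed on 4 arrays of rat lens capsules. A probe set, a group of array probes directed at a transcript, was taken as a member when its single gene symbol in the platform annotation was one of these names. This gave 9 probe sets of 31042, for 7 of the 8 genes. *Tyrp1* and *Mitf* each had a brighter and a dimmer probe set, and no probe set had *Slc45a2* as its single symbol. Of the 9, 8 lay at or above the level filter used for testing, the 40th percentile of mean log2 level, which 18625 probe sets passed. *Kit* lay below it.

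Extracapsular lens extraction (ECLE), in which the capsule is opened and the lens taken out of it, was performed in 7-week-old female albino SD (Sprague-Dawley) rats. Lens capsules with the lens epithelial cells (LECs) that stayed on them were collected on day 0 once surgery was over (age 7 weeks, 1 array), at 1 W (7 days, age 8 weeks, 2 arrays labeled biological replicates 1 and 2) and at 2 W (14 days, age 9 weeks, 1 array). Day 0 capsules had therefore undergone surgery as well. The sources used here do not say how many eyes an array holds, and the methods count more samples in a group than there are arrays. Of the 11 lens epithelium markers, all of which passed the level filter, the brightest were high on all 4 arrays. *Cryab*, a small heat shock crystallin of the lens, lay between 9229 and 11171 in deposited intensity, and *Cryaa* between 7430 and 8741. *Cdh1*, the E-cadherin gene, went from 6852 on day 0 to 1250 at 2 W, *Pax6* from 4029 to 1382 and *Foxe3* from 1471 to 361, and *Six3* was dim, between 13.3 and 54.0.

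Pigment cells make melanin in melanosomes, organelles related to lysosomes. Tyrosinase (*Tyr*) starts the synthesis from tyrosine, dopachrome tautomerase (*Dct*) and tyrosinase-related protein 1 (*Tyrp1*) act later in the path, *Pmel* forms the fibrils on which melanin is laid down, and *Mlana* is a melanosome membrane protein that associates with *Pmel*. MITF is the transcription factor known to drive many of these genes through motifs such as CATGTG, and *Kit* is the receptor through which Kit ligand acts on melanocytes. In the eye the genes are active in melanocytes of the iris, ciliary body and choroid and in the pigment epithelia that derive from the optic cup, and some of them are also used in other cells. Albino rats lack working tyrosinase and form no melanin, although their pigment cells are present.

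The promoters of 7 of the 8 genes were found in the RefSeq promoter table (rat assembly GRCr8, 250 bases before to 50 after each start), and CATGTG was searched there on both strands because it is the motif MITF binds. It was present in 4 of the 7 windows, those of *Dct*, *Tyr*, *Tyrp1* and *Mlana*, and in 13.97% of the 33469 promoters in the table. The stretches around the matches are shown 5′ to 3′ on the gene's strand, with the motif in capitals.
Dct, chr15:101508100-101508179, minus strand: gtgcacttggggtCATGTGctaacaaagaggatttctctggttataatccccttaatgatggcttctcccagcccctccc
Tyr, chr1:150622858-150622997, minus strand: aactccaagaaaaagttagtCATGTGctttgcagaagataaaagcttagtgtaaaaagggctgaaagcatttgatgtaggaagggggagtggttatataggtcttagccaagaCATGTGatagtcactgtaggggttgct
Tyrp1, chr5:100327025-100327104, plus strand: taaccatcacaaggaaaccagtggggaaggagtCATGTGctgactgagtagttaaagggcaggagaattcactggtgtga
Mlana, chr1:236882845-236882924, plus strand: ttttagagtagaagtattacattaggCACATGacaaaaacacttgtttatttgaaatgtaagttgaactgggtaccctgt

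The first base of the motif lay 137 bases upstream of the start in *Dct*, 120 and 27 bases upstream in *Tyr*, and 67 bases upstream in *Tyrp1*. In *Mlana* the motif was on the other strand, written as CACATG, 204 bases upstream. The windows of *Dct*, *Tyr* and *Tyrp1* shared the longer stretch GTCATGTGCT, which 22 of the 33469 promoters held (0.0657%), and *Tyr* and *Tyrp1* shared AGTCATGTGCT, held by 12 (0.0359%). These stretches were picked after the windows had been read. The form TCATGTG, also looked at afterwards, was in the same 4 windows and in 3.56% of all promoters. The windows of *Pmel*, *Mitf* and *Kit* held no CATGTG, and CACGTG, the E-box form of the motif, was in 0 of the 7 windows and in 6.42% of all promoters. A match describes the letters alone, and the arrays did not measure binding.

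For the expression values, each array was divided by its mean intensity, and a ratio is the value on an array after ECLE over the single day 0 array. All 3 ratios of a probe set therefore share that 1 array. The median intensity ranged from 31.9 at 2 W to 57.0 on day 0, with 45.2 and 46.7 for the 1 W arrays. After scaling, the median log2 ratio of the probe sets above the level filter was -0.09 for 1 W replicate 1, -0.06 for replicate 2 and -0.26 for 2 W, and member values are read against these shifts. With division by the array median the 2 W median was 0.01, and with the values as deposited it was -0.83. The samples are bulk tissue, so more cells of a type and more RNA per cell cannot be told apart, and fewer cells and less RNA per cell cannot either.

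The pigment genes as a group were higher on each array after ECLE than on day 0, most on 1 W replicate 1 and least on 1 W replicate 2. The median log2 ratio over the 7 genes, each by its brightest probe set, reached 2.74 on replicate 1, then 1.79 at 2 W and 0.94 on replicate 2. All 8 probe sets above the filter exceeded day 0 on all 3 arrays. On replicate 1, 9 of the 9 member probe sets were more than 2.0-fold above day 0, where 9.87% of all probe sets were. On replicate 2, 3 of the 9 were (10.6% of all), and at 2 W, 7 of the 9 were (13.0% of all). The replicate 1 and 2 W counts include *Kit*, which lay below the filter. With a floor on dim values its log2 ratios there were 0.84 and 0.96, short of 2.0-fold. The brighter *Mitf* probe set also fell short on replicate 1 with the values as deposited (log2 ratio 0.94). *Dct*, *Tyr* and *Mlana* passed 2.0-fold on each of the 3 arrays, as did 4.32% of all probe sets and 2.05% of those above the filter. No member was under 0.5-fold on each array, where 3.63% of all probe sets were.

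**Figure D1:**
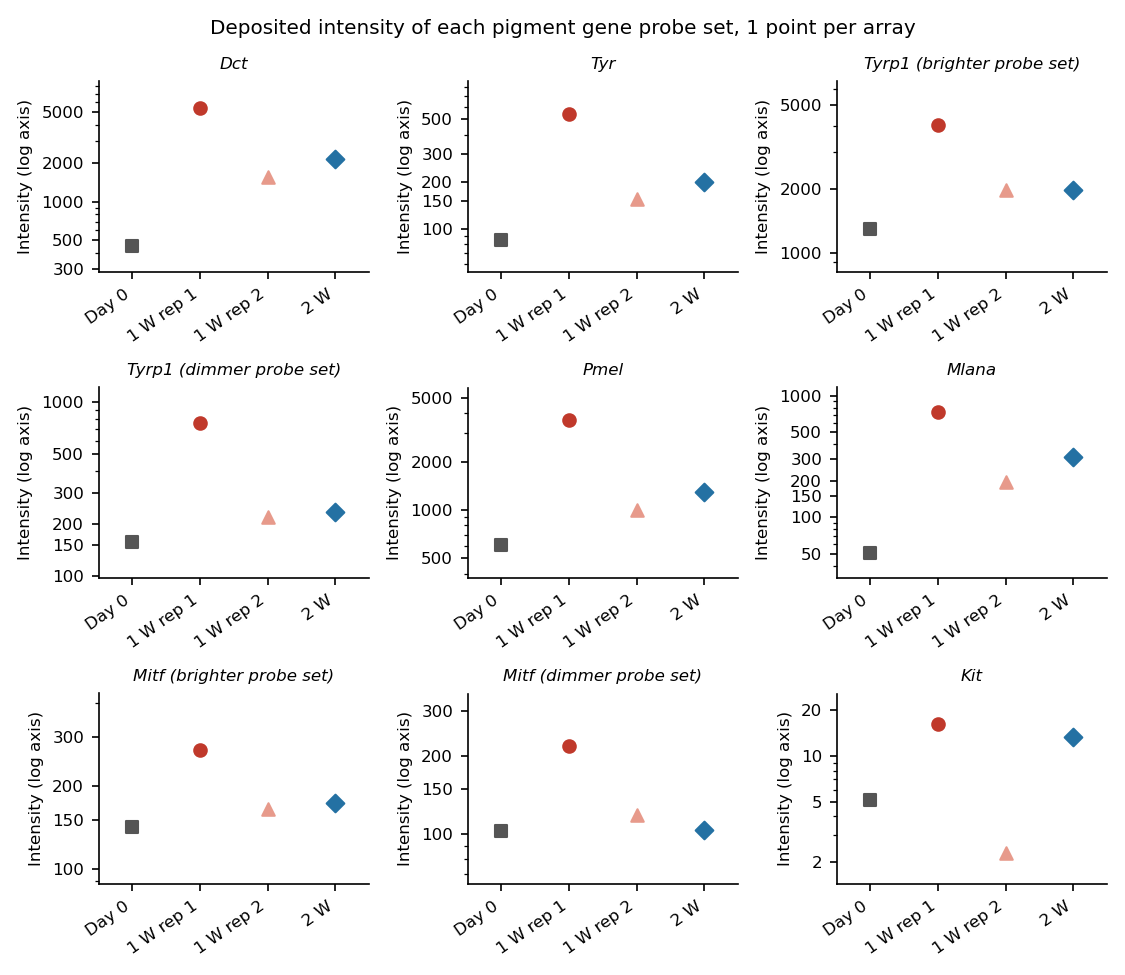
Deposited intensity (vertical log axis, arbitrary units, a separate scale in each panel) of the 9 member probe sets on the 4 arrays, 1 point per array. In every panel except Kit the day 0 array is the lowest and 1 W replicate 1 the highest, for Dct from 455 to 5446.

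*Dct*, *Tyr* and *Tyrp1* form the enzyme group. *Dct* had intensities of 455 on day 0, 5446 on 1 W replicate 1, 1553 on 1 W replicate 2 and 2152 at 2 W. All arrays after ECLE were above day 0, replicate 1 furthest and replicate 2 least. The log2 ratios were 3.75, 1.99 and 2.81, which are 13.5-fold, 3.98-fold and 7.01-fold, and the 1 W mean was 2.87 ± 1.24 (SD, n = 2). *Dct* is also among the genes that the study listed as most changed on these same arrays, so its direction here is not independent evidence.

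*Tyr*, whose product is the first enzyme of the path, had intensities of 85.7 on day 0, 544 and 156 at 1 W and 200.2 at 2 W. Its array order was that of *Dct* at smaller size, with log2 ratios of 2.83, 1.09 and 1.79 (7.12-fold, 2.12-fold and 3.46-fold). The brighter probe set of *Tyrp1*, an enzyme and stabilising partner of tyrosinase, gave 1301, 4052, 1994 and 1979, with arrays listed as before. Replicate 2 and 2 W were nearly equal in deposited intensity, and after scaling 2 W was the higher, with log2 ratios of 1.81, 0.83 and 1.17. The dimmer *Tyrp1* probe set, with intensities of 156, 756, 219 and 234, had log2 ratios of 2.44, 0.70 and 1.15. The *Tyrp1* probe sets differed by 0.64 in log2 ratio on replicate 1 and by -0.13 and -0.02, dimmer minus brighter, on replicate 2 and at 2 W.

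*Pmel* and *Mlana* are the melanosome structural genes. *Pmel* had intensities of 606 on day 0, 3611 and 998 at 1 W and 1291 at 2 W. Again day 0 was lowest and replicate 1 stood well above the others, and the log2 ratios were 2.74, 0.94 and 1.66. *Mlana* had intensities of 51.0, 733, 196 and 316, and its log2 ratios of 4.01, 2.16 and 3.20 were the largest among the members on all 3 arrays (16.1-fold, 4.47-fold and 9.19-fold). The 1 W mean of *Mlana* was 3.09 ± 1.31 (SD, n = 2).

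*Mitf*, the regulator, differed least from day 0 among the members above the filter. Its brighter probe set had intensities of 141, 270, 165 and 173, with log2 ratios of 1.11, 0.44 and 0.86. Its dimmer probe set had intensities of 102, 220, 119 and 104, with log2 ratios of 1.27, 0.43 and 0.59. Replicate 1 was thus just past 2.0-fold in both, while replicate 2 and 2 W were not. *Kit* was dim on every array, with intensities of 5.09 on day 0, 16.1 and 2.30 at 1 W and 13.3 at 2 W. It was the only member whose 1 W arrays lay on opposite sides of day 0, with log2 ratios of 1.83 and -0.93 and 1.95 at 2 W, and without replicate 1 its 1 W value is -0.93 in place of 0.45. No detection calls were used here, so the signal of so dim a probe set over background is unknown.

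**Figure D2:**
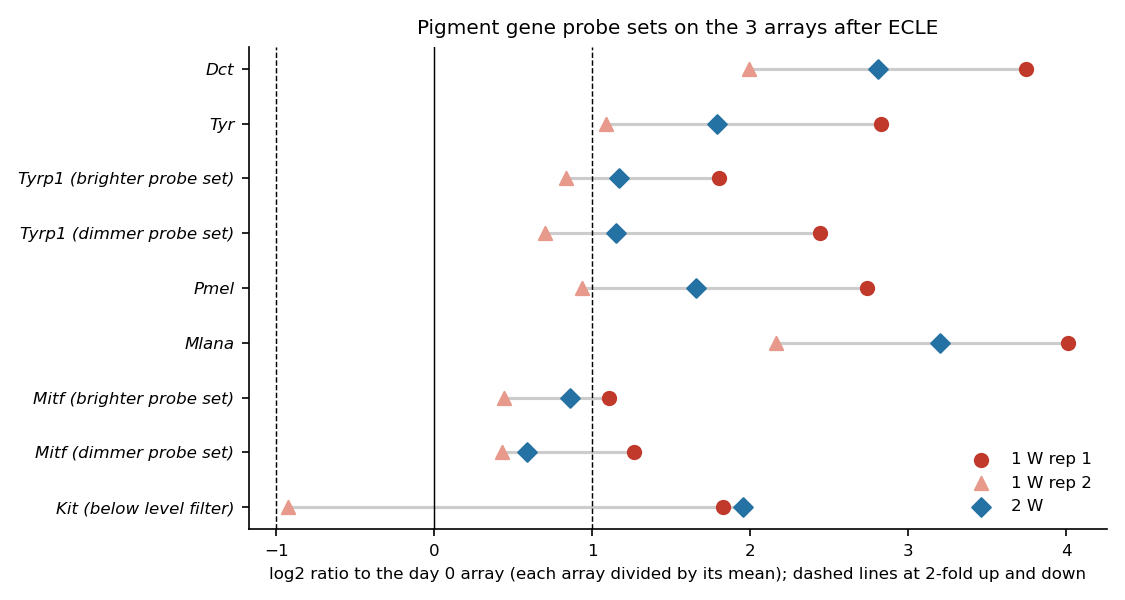
Log2 ratio to the day 0 array (horizontal axis, arrays divided by their means) of each member probe set on the 3 arrays after ECLE, with dashed lines at 2.0-fold and 0.5-fold. For the 8 probe sets above the filter, 1 W replicate 2 is the lowest point, 2 W lies in the middle and replicate 1 is the highest, from 1.11 for Mitf to 4.01 for Mlana.

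None of these differences passed the test across all probe sets. limma was fitted to the 18625 probe sets with day 0, 1 W and 2 W as groups, and its residual spread came from the 2 arrays at 1 W alone, with 1 residual and 3.12 prior degrees of freedom. At the Benjamini-Hochberg threshold of 0.05, limma called 0 of the 8 member probe sets at 1 W and 0 at 2 W against day 0, where 0.0483% of all probe sets were called higher at each time. At an unadjusted p under 0.05 there were 3 of the 8 at 1 W (*Dct*, *Mlana* and the brighter *Tyrp1* probe set) and 2 at 2 W (*Dct* and *Mlana*), all of them higher than day 0. Over all 18625 probe sets, 8.21% were higher and 17.9% differed in either direction at that level at 1 W, and 9.01% and 30.9% at 2 W. The lowest limma adjusted p among members was that of *Mlana*, 0.205 at 1 W (log2 ratio 3.09, SE 0.81) and 0.118 at 2 W (log2 ratio 3.20, SE 0.93). For *Dct* the limma adjusted p was 0.208 at 1 W (SE 0.76) and 0.130 at 2 W (SE 0.88). The remaining members above the filter had limma adjusted p from 0.252 to 0.359 at 1 W and from 0.202 to 0.441 at 2 W. With division by the array median in place of the mean, *Dct* and *Mlana* passed at 2 W (limma adjusted p 0.0471 and 0.0401).

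Between 1 W and 2 W, the comparison that does not use the day 0 array, limma called 0 members and 0.0% of all probe sets, with 0 members at an unadjusted p under 0.05. Over all probe sets in that comparison 1024 were higher and 3048 lower at 2 W at an unadjusted p under 0.05. The member log2 differences, 2 W minus the 1 W mean, ran from -0.42 for the dimmer *Tyrp1* probe set (SE 0.76) to 0.11 for *Mlana* (SE 0.81). With all 3 arrays after ECLE as 1 group against day 0, a fit added after the values were seen, limma again called 0 members and 0.0215% of all probe sets as higher, and the lowest member adjusted p was 0.223, that of *Mlana*.

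The 1 W replicates stood further apart for the pigment genes than for most other probe sets. The log2 of replicate 1 over replicate 2 was 1.85 for *Mlana*, 1.80 for *Pmel*, 1.76 for *Dct*, 1.75 for *Tyr*, 0.97 and 1.74 for the brighter and dimmer *Tyrp1* probe sets, and 0.66 and 0.83 for those of *Mitf*. *Dct*, *Tyr*, *Pmel*, *Mlana* and the dimmer *Tyrp1* probe set were therefore between 3.33-fold and 3.61-fold higher on replicate 1. Over all probe sets above the filter the median of this difference was -0.03, its 95th percentile 0.58 and its 99th percentile 1.22. The members above the filter lay between the 96.1 and 99.7 percentiles. This difference is also the spread on which the limma test rests.

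**Figure D3:**
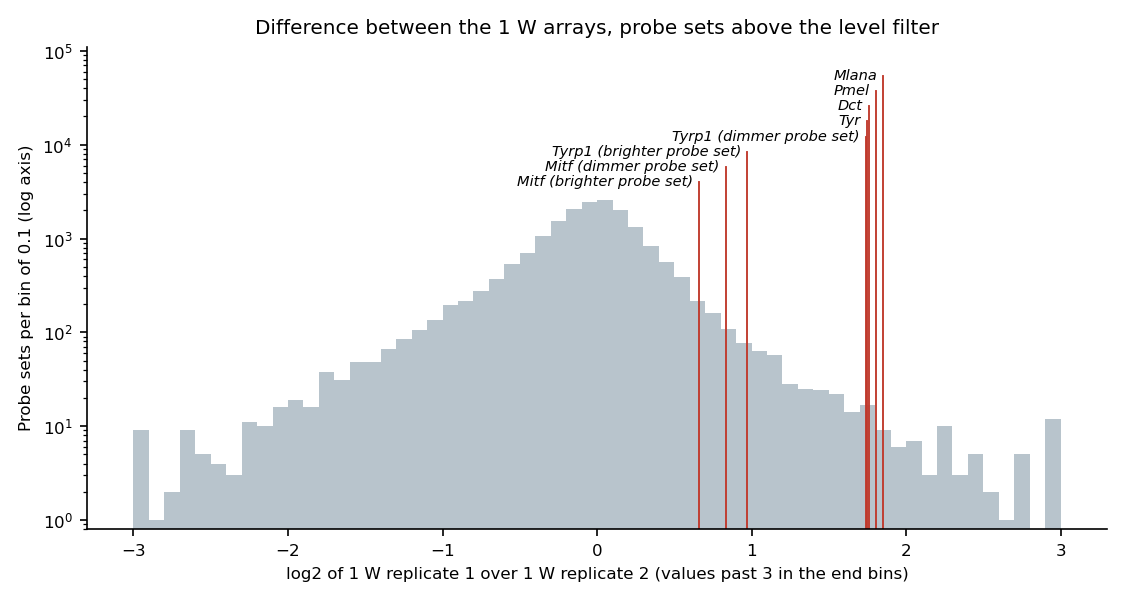
Number of probe sets above the level filter (vertical log axis) by log2 of 1 W replicate 1 over replicate 2 (horizontal axis, bins of 0.1, values past 3 in the end bins), with the 8 members above the filter as red lines. Most probe sets lie close to 0, while Dct, Tyr, Pmel, Mlana and the dimmer Tyrp1 probe set lie between 1.74 and 1.85.

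All 8 member probe sets above the filter had the arrays in 1 order, day 0 lowest, then 1 W replicate 2, then 2 W, then 1 W replicate 1. The same order was found in 3.22% of the 18625 probe sets above the filter (600). It held for 8 of the 8 with division by the median or the 75th percentile and with quantile normalization, and for 6 of the 8 in the values as deposited, where the brighter *Tyrp1* and the dimmer *Mitf* probe sets had 2 W just below replicate 2. The order was noticed in these data before it was counted.

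The genes most like *Dct* were looked for among the 10455 genes above the filter, by the smallest Euclidean distance over the 3 log2 ratios to day 0. The nearest were *Rnase4* (distance 0.39), *Thbs4* (0.43), *Mlana* (0.50), *Gda* (0.50) and *Actg2*, a smooth muscle actin (0.54). *Mlana* was thus the only member among the 5. *Tyr* ranked 80th, *Pmel* 101st, *Tyrp1* 255th and *Mitf* 556th. Taken from *Tyr*, a search added after the values were seen, the nearest gene was *Lrrn4cl* (distance 0.14), with *Pmel* the second (0.22) and *Rab27a* the third (0.35). The 5 genes nearest to *Tyrp1* and to *Mitf* held no member, and the first member in those searches ranked 183rd and 1033rd. The distance covers 3 ratios that share a denominator, so it describes likeness over 4 arrays and carries no test.

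Of the other genes of the pigment pathway, 58 of 68 listed had a probe set of their own, and as a group they lay near day 0. Their median log2 ratio was 0.13, -0.08 and -0.16 on replicate 1, replicate 2 and at 2 W, limma called 0 of the 45 above the filter in either direction at either time (6 at 1 W and 13 at 2 W had an unadjusted p under 0.05, against 17.9% and 30.9% of all probe sets), and 7 of the 58 were over 2.0-fold on each array against 4.28% of all genes. None was under 0.5-fold on each array, where 2.59% of all genes were. The sign of 2 of these medians depended on scaling, at 2 W, where it was 0.12 with division by the array median, and on replicate 1, where it was -0.04 with the values as deposited.

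The genes that build melanosomes, which also serve other lysosome-related organelles, were measured in 18 of 20 cases and had medians of 0.10 (-0.07 as deposited), -0.06 (0.0063 with division by the array median) and -0.18 (0.09 with that division). None of the 18 was over 2.0-fold on any array, where 9.87%, 10.6% and 13.0% of all probe sets were. At 2 W, 2 of the 18 were under 0.5-fold, *Hps4*, which lay below the filter (log2 ratio -2.87), and *Rab32* (-1.15). The share of all genes under 0.5-fold at 2 W alone was not counted. *Cd63*, a tetraspanin of late endosomes that sorts *Pmel*, had intensities of 4043, 4111, 3785 and 2145, and *Ap3d1*, a subunit of the AP-3 sorting adaptor, 1911, 1768, 1834 and 1309. Both were within 0.35 log2 units of day 0 after scaling. The channels and transporters of the melanosome (7 of 9 measured) had medians of 0.15 (-0.02 with the values as deposited), -0.10 and -0.61. Of the 7, 0 were over 2.0-fold on each array, against 4.28% of all genes. *Slc7a11*, the cystine transporter that feeds pheomelanin synthesis, had log2 ratios of 0.15, 0.43 and -0.61, and *Atp7a*, the copper pump that loads tyrosinase, had -0.29, -0.31 and -0.86. *Gpr143*, the melanosome receptor mutated in ocular albinism and picked after its values were seen, had intensities of 17.8, 64.9, 14.2 and 32.1, so that replicate 2 lay slightly below day 0.

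The 8 melanosome transport genes were all measured and had medians of 0.36, 0.13 (-0.09 as deposited) and -0.23 (0.05 with division by the array median). *Kif5b*, a kinesin heavy chain, had log2 ratios of 0.08, 0.0048 and 0.24, and *Mlph*, the linker between *Rab27a* and myosin, 0.94, 0.61 and -0.31. *Rab27a*, the GTPase that ties melanosomes to that motor and chosen after its values were seen, had intensities of 44.4, 228.5, 75.6 and 93.5 and log2 ratios of 2.53, 0.98 and 1.64. It kept the order of arrays of the members, and its other 2 probe sets had log2 ratios of 2.67, 1.76 and 1.75 and of 1.73, 0.65 and 0.73. That order was found in 1 of the 8 transport genes and 4 of the 58 other pathway genes, against 3.22% of probe sets above the filter. *Mreg*, another transport gene named after its values were seen, lay below day 0 on all 3 arrays, with log2 ratios of -0.30, -0.56 and -2.39.

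**Figure D4:**
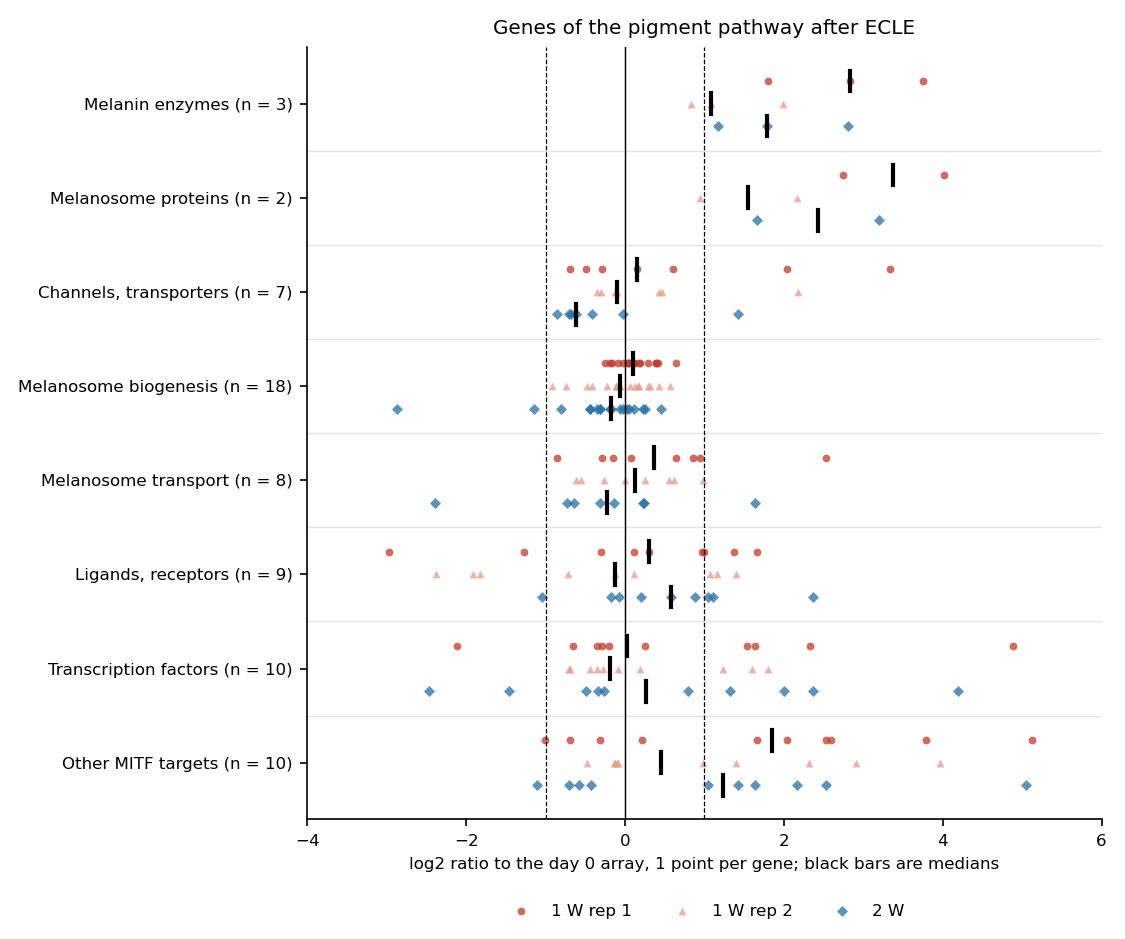
Log2 ratio to the day 0 array (horizontal axis) of each measured gene of the pigment pathway, by group (rows, n = genes measured) and array (colors), with black bars at the medians and dashed lines at 2.0-fold and 0.5-fold. The enzymes and melanosome proteins lie to the right of 0 on all 3 arrays, while the 18 biogenesis genes center near 0.

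Among the ligands and receptors, 9 of 12 had a probe set under their own symbol in the annotation used here. *Ednrb*, the endothelin receptor of melanocytes, was not named there and was not analysed here, although it is on the list that the study chose from these arrays. Their medians were 0.30, -0.12 and 0.58, and *Met*, the hepatocyte growth factor receptor, was the 1 gene of the 9 over 2.0-fold on each array (4.28% of all genes were). The brightest of 4 probe sets of *Kitlg*, the ligand of *Kit*, had intensities of 244, 268, 226 and 146. Its log2 ratios of 0.30, 0.11 and -0.18 were closer to day 0 than those of any member probe set. The other *Kitlg* probe sets above the filter had log2 ratios of -0.43, -0.53 and -0.35 and of 0.24, 0.23 and -0.22. The dimmest, below the filter, had -0.51, -0.45 and -0.12. *Edn1*, an endothelin, had log2 ratios of -0.30, -0.12 and -0.07.

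The transcription factors of the lineage other than *Mitf* (10 of 13 measured) had medians of 0.03, -0.18 and 0.27. Under a floor on dim values the replicate 1 and 2 W medians were -0.10 and -0.13, and with the values as deposited -0.14 and -0.30. *Zeb2*, a repressor of epithelial genes that is also active in melanocytes, had log2 ratios of -0.20, -0.44 and -0.27, and *Tfap2a*, an AP-2 factor, -0.66, -0.70 and -1.46. Of the 10, 3 were over 2.0-fold on each array (4.28% of all genes were), namely *Sox10*, *Lef1* and *Tfec*, an MITF relative. *Sox10*, a neural crest factor that activates *Mitf*, lay below the filter with intensities of 1.61 on day 0, 42.4 and 4.80 at 1 W and 19.8 at 2 W. It was near the bottom of the scale on day 0, and its arrays were in the order seen in the members. That order was found in 2 of the 10 factors and in 3.22% of the probe sets above the filter.

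The further MITF targets gave medians of 1.85, 0.45 and 1.23 over 10 of 11 measured genes. Of the 10, 4 were over 2.0-fold on each array, against 4.28% of all genes. *Gpnmb*, a glycoprotein of melanosomes and macrophage lysosomes, had intensities of 310, 3838, 2010 and 1209 and log2 ratios of 3.80, 2.91 and 2.53. Unlike the members, it was lower at 2 W than on both 1 W arrays. Its limma adjusted p was 0.105 at 1 W and 0.0688 at 2 W, and it too is on the list that the study chose from these arrays. *Cdk2* had log2 ratios of 0.21, -0.09 and -0.43.

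Markers of the cell types that carry pigment genes did not move as 1 block. Of the melanocyte markers outside the members, 6 of 10 were measured, with medians of 1.49, 0.26 (-0.05 under a floor) and 0.56 (-0.01 as deposited). Of the 6, 2 (*Sox10* and *Gpnmb*) were over 2.0-fold on each array, against 4.28% of all genes. *Rab38*, a melanosome GTPase, had log2 ratios of 0.64, -0.23 and -0.32. The retinal pigment epithelium markers, 13 of 15 measured, had medians of 0.24, 0.07 (-0.15 as deposited) and -0.59. Of the 13, 1 was over 2.0-fold on each array (4.28% of all genes were), *Lrat*, which lay below the filter with an intensity of 1.88 on day 0. The sum of this list, in multiples of the array mean, was 14.6 on day 0, 13.0 and 13.9 at 1 W and 9.07 at 2 W. *Serpinf1*, the gene of pigment epithelium-derived factor, had log2 ratios of 0.03, -0.16 and -0.59, and *Trpm3*, a cation channel, -0.73, 0.07 and -1.24. *Rpe65*, the retinoid isomerase that defines this epithelium and chosen after its values were seen, had intensities of 54.6, 74.4, 33.2 and 31.9. The 9 of 12 measured ciliary body and iris markers had medians of 0.10 (-0.07 as deposited), 0.94 and 0.26 (-0.31 as deposited). Of the 9, 2 were higher on replicate 1 than on replicate 2, a log2 difference with a median of -0.03 over all probe sets above the filter. In this list *Col9a1*, a collagen of the ciliary epithelium, had log2 ratios of 0.10, 1.90 and -0.13, the opposite of the member order at 1 W, and *Aldh1a1*, a retinaldehyde dehydrogenase, 1.06, 0.99 and 0.26.

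*Kit* also marks mast cells, and that list was near the bottom of the scale. Of 13 of 14 measured mast cell markers, 2 passed the filter, *Tpsb2*, a tryptase, with intensities of 84.4, 67.9, 23.5 and 45.2, and *Hpgds* with 36.9, 29.6, 31.3 and 16.3. The list sum ran from 0.66 to 0.85 on the 4 arrays, and *Cpa3*, the mast cell carboxypeptidase, lay between 10.1 and 16.1. The Schwann cell markers, which share *Sox10* with melanocytes, were measured in 11 of 14 cases, with medians of 0.63, 0.47 and 0.88. *Pmp22*, a myelin protein, had log2 ratios of 0.0070, -0.57 and 0.16, and *Prx*, the periaxin gene, 0.63, 0.39 and 0.92.

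**Figure D5:**
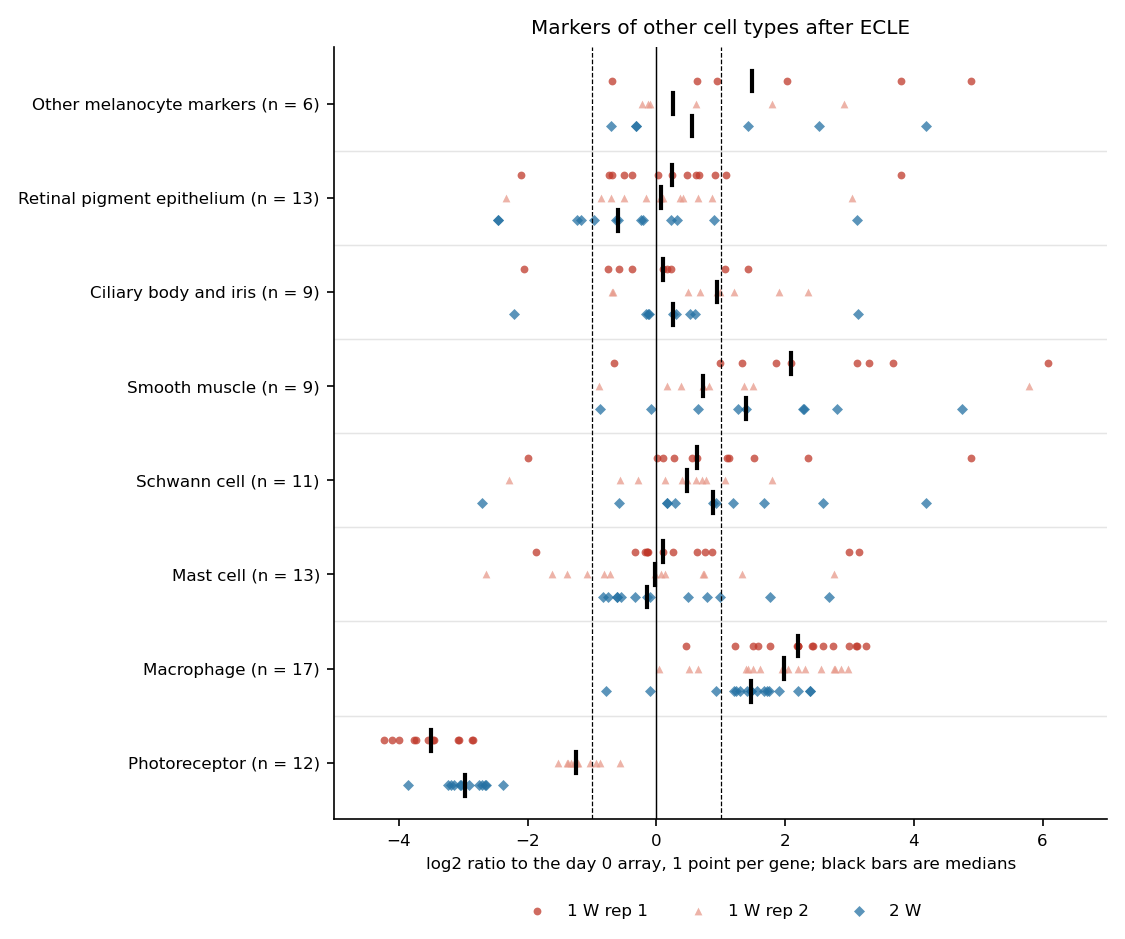
Log2 ratio to the day 0 array (horizontal axis) of each measured marker gene, by cell type (rows, n = genes measured) and array (colors), with black bars at the medians and dashed lines at 2.0-fold and 0.5-fold. Photoreceptor markers are below 0 on every array and, by median, furthest on 1 W replicate 1. The smooth muscle median is higher on that array than on replicate 2 or at 2 W.

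Marker lists of other cell types differed between the arrays along with the pigment genes, and their part in the pigment values was not tested. The paper names smooth muscle actin and collagens I and III among genes raised by transforming growth factor β in epithelial-mesenchymal transition. The smooth muscle and fibroblast lists can thus reflect lens epithelial cells too, and the arrays cannot tell these apart. The photoreceptor markers (12 of 14 measured) were below day 0 on all 3 arrays, with medians of -3.51, -1.24 and -2.97, and 10 of the 12 had exactly the reverse of the member array order, which 5.88% of all probe sets above the filter had. Their sum in multiples of the array mean was 70.4 on day 0, 6.75 and 30.4 at 1 W and 9.24 at 2 W. *Sag*, the rod arrestin gene, had intensities of 2765, 344, 992 and 211, and *Pde6g*, of the rod phosphodiesterase, 2617, 211, 922 and 279.

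The smooth muscle markers, all 9 of which were measured, had medians of 2.10, 0.73 and 1.39. Of the 9, 9 were higher on replicate 1 than on replicate 2, a log2 difference with a median of -0.03 over all probe sets above the filter. *Tagln*, an actin-binding protein, rose at 1 W (limma adjusted p 0.0297) with log2 ratios of 6.08 and 5.79, and at 2 W (limma adjusted p 0.049995) with 4.75. Without an intensity trend the limma adjusted p of *Tagln* was 0.295 and 0.149, and at 2 W it ranged over the alternatives from 0.000594 to that value. The 2 W call of *Tagln* was also lost with quantile normalization, a floor, no level filter or a stricter filter. *Acta2*, smooth muscle actin, had log2 ratios of 0.98, 0.82 and 0.65. *Myh11*, the smooth muscle myosin heavy chain, and *Des*, a muscle intermediate filament, were picked after their values were seen. *Myh11* had intensities of 57.1, 649.5, 81.1 and 187, and *Des* 23.8, 209, 52.5 and 78.3, both with the arrays in the member order. That order was found in 4 of the 9 smooth muscle markers, against 3.22% of probe sets above the filter.

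The macrophage markers, all 17 measured, had medians of 2.20, 1.98 and 1.48, and 14 of them were over 2.0-fold on each array, against 4.28% of all genes. *Lyz2*, a lysozyme that the study also lists from these arrays, had intensities of 235, 2005, 1472 and 826, so that the 1 W arrays lay closer together than for *Dct*. *Fcer1g*, an Fc receptor chain, had log2 ratios of 2.44, 2.21 and 1.57. The medians of fibroblast markers (8 of 8 measured) were 1.29, 0.98 and 1.35, and *Col1a1* rose at both times (limma adjusted p 0.0300 at 1 W and 0.0405 at 2 W, but 0.295 and 0.149 without a trend, and 0.0560 at 2 W with quantile normalization). Endothelial markers (7 of 8) had medians of 0.88, -0.28 and 0.44 (-0.13 as deposited), with *Tek* at 0.88, 0.47 and 0.44 and *Kdr* at -0.72, -0.28 and -0.59. Lens epithelium markers (11 of 11) had medians of -0.17 (0.0027 with median scaling), -0.34 and -0.98, and lens fiber markers (8 of 9) -0.34, -0.89 and 1.70, with *Lim2*, a lens membrane protein, at 0.76, 0.37 and 1.56 and *Gja3*, a lens connexin, at 0.10, -0.21 and 1.14. RNA quality, read as the ratio of 3′ to 5′ signal of the array's beta-actin controls, was 2.32 on day 0, 1.89 and 1.90 at 1 W and 1.61 at 2 W. For the GAPDH controls it was 1.16, 1.12, 1.18 and 1.10. Day 0, the lowest array in the pigment genes, thus had the highest beta-actin ratio. The GAPDH ratio was highest on 1 W replicate 2. The paper reports high RNA integrity numbers for all RNA samples. The part of RNA quality in the pigment values was not tested.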

How the data were processed

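RNA of rat lens capsules was hybridized by the authors to 4 Affymetrix rat genome 230 2.0 arrays, scanned, and processed in Affymetrix Command Console and in Expression Console, which the labels name too. The values the authors deposited are linear intensities, 1 per probe set and array. The sources used here do not give the summary algorithm or say whether normalization per chip is already included. Array number, not read depth, limits the precision.

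After 57 control probe sets were left out, each array was divided by its mean, which the methods name as a divisor beside specific control values, and log2 was taken, since array medians spanned 0.84 log2 units. Of 31042 probe sets, 20826 had a single platform symbol. limma 3.58.1 in R 4.3.3 (lmFit, eBayes with trend, two-sided, Benjamini-Hochberg threshold 0.05) was fitted on the 18625 above the filter. The 2 arrays at 1 W, labeled biological replicates, supply the spread behind every p-value but those of the fit with all arrays after ECLE as 1 group. In that fit, with 2 residual degrees of freedom, the 2 W array adds to the spread, so time and replicate differences are mixed. limma was also run on simulated data with the same noise for every probe set and array. The spread on day 0 and at 2 W is unknown here, so that run checks the code alone. The fold rules, over 2.0 and under 0.5, follow the methods. Percentages beside counts are shares of all probe sets or, for gene lists, of all 14217 genes. Tables and figures used Python 3.11.15, numpy 2.4.6, pandas 2.3.3 and matplotlib 3.10.9.

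Named genes are the members with every probe set, up to 2 called genes per direction of each other list or else its 2 brightest, and Ednrb, Gpnmb and Kitlg. The 5 genes nearest to Dct were also named. Other named genes fall outside this rule and were not fixed beforehand. Among them are Cdh1, Pax6, Foxe3, Six3, Acta2, Hps4, Rab32, Met, Lrat and Cpa3. Where a gene had several probe sets, the one of highest mean level stood for it. The members and lists were chosen with earlier results of these data known. Promoter sequences are from RefSeq (GRCr8). The alternatives were median, 75th percentile, quantile and no scaling, a floor, other filters, limma without a trend or robust, and each 1 W replicate left out.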

Additional observations from a re-analysis of the deposited data

How the results depend on the processing

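With division by the array median, limma called 2 members at 2 W in place of 0, Dct and Mlana, and over all 18625 probe sets 948 higher and 683 lower in place of 9 and 0. No other setting called a member, and limma adjusted p for Dct at 2 W ran from 0.0471 to 0.202. Members over 2.0-fold on each array ranged from 3 to 7 when a 1 W replicate was left out, 7 without replicate 2, and 2 to 4 under other scalings. Of 188 alternatives for member log2 ratios, 185 were labeled the same, 2 now passed and 1 reversed, Kit at 1 W (-0.93 without replicate 1 and 1.83 without replicate 2). Other filters, limma without a trend and robust limma cannot change a ratio, so there only the call could differ. For Kit, and where a 1 W replicate was left out, there was no call and direction alone was compared. For list medians, 35 of 288 alternatives gave another sign. Leaving out a 1 W replicate leaves no residual degrees of freedom, so those are values with no test. No paired analysis was possible because each animal was sacrificed at a single time point, so arrays of different times hold different rats.

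With 1 array on day 0 and at 2 W, the spread there is unknown, and without detection calls signal over background is unknown for dim probe sets such as Kit and Sox10. For all genes, the limma counts at 1 W ran from 0 higher without a trend to 260 higher with median scaling, against 9. At 2 W they ran from 0 higher (no trend, or quantile normalization) to 948. The values as deposited gave 344 higher and 7630 lower at 2 W.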

Other observations

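Further genes of neural crest and glia, chosen after their values were seen, had array orders of several kinds. Tfap2b, an AP-2 factor, had intensities of 84.0 on day 0, 217 and 82.1 at 1 W and 292 at 2 W, and its other 2 probe sets had 2 W log2 ratios of 2.78 and 2.27. Ngfr, the low-affinity neurotrophin receptor, had 153, 201, 108 and 620, so that only 2 W was clearly above day 0. Lef1, a WNT pathway factor, had 31.2, 86.3, 81.2 and 84.3, with the arrays after ECLE close together. S100b, a glial and melanocytic calcium-binding protein, had 48.7, 222, 64.0 and 105 and the array order of the pigment genes. That order was found in 3 of the 11 Schwann cell markers and in 3.22% of the probe sets above the filter. The limma adjusted p at 2 W was 0.120 for Tfap2b, 0.0685 for Ngfr, 0.0607 for Lef1 and 0.277 for S100b.

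Otx2, a factor of retinal pigment epithelium and photoreceptors, had intensities of 361, 74.5, 191 and 44.2 on its brighter probe set, below day 0 on every array after ECLE. Its other probe set, below the level filter, had 25.3, 25.4, 26.7 and 3.91, so that only 2 W was below day 0.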
